A study of Mus musculus with 74 samples.

Results

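The genes *Cyp2b9*, *Cyp2b10*, *Cyp2b13*, *Cyp2a4*, *Cyp2a5*, *Cyp2a12* and *Cyp2a22* encode cytochrome P450 enzymes and lie in 1 cluster of related copies on mouse chromosome 7. In livers without GPS2, mean *Cyp2a4* and *Cyp2b9* RNA stood 364-fold and 452-fold above WT, *Cyp2a22* about 6-fold, and *Cyp2a5* and *Cyp2a12* less than 2-fold. In livers without PPARα, NCOR tags fell at 10 of 79 peaks of these genes, against 2.51% of all NCOR peaks, while the count was 2 without WT library 3 or with DESeq2 and 4 with TMM scaling. Of all 115042 NCOR peaks, 1138, 452 and 1206 fell in these fits. H3K27ac around the start of *Cyp2b10* rose in *Ncor* LKO livers and was not called in *Smrt* LKO livers, with an adjusted p of 0.0518 (edgeR) for the difference between both. This was the only peak called of 59 in the *Ncor* line, against 2.32% of all peaks that rose. It was called in 5 of 6 fits with 1 library left out, and both lines also differed in Y and *Xist* tags. The 7 genes were chosen by name, with earlier results of the *Gps2* LKO against WT comparison known. They make up 7 of the 14583 rows of the RNA-seq table, and each ChIP-seq table holds between 15 and 80 peaks whose nearest gene, as the authors assigned it, is 1 of the 7, out of 27842 to 115042 peaks.

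CYP2A and CYP2B enzymes oxidize steroids, drugs and other foreign compounds in the endoplasmic reticulum of hepatocytes, with electrons from the reductase POR. *Cyp2b10* is the classical target of the phenobarbital-responsive receptor CAR (*Nr1i3*), which acts through repeated half-sites upstream of the gene. *Cyp2a4*, *Cyp2b9* and *Cyp2b13* are known for higher expression in female than in male mouse liver, a difference set by the pituitary pattern of growth hormone. *Cyp2a4* hydroxylates testosterone and *Cyp2a5* hydroxylates coumarin, although both enzymes differ in few residues. GPS2, NCOR and SMRT are subunits of a corepressor complex that nuclear receptors such as PPARα recruit.

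Livers of C57BL/6 mice with a labelled age of 8 to 12 weeks were compared between knockouts and their controls, which the labels call WT, on chow diet. The *Gps2* LKO mice carry *Gps2* flox/flox alleles and Cre driven by the albumin promoter, which acts in hepatocytes, so other liver cells keep the gene, and their WT controls carry the flox/flox alleles without Cre. *Ncor* LKO and *Smrt* LKO mice are liver-specific knockouts, while *Pparα* KO mice lack the receptor in the whole body. RNA-seq covered 4 WT and 4 *Gps2* LKO livers, and ChIP-seq covered GPS2 and RNA polymerase II (Pol II) with 1 library per group in the *Gps2* line. The same line has 2 libraries per group for H3K27ac, a mark of active enhancers and promoters, and for H3K4me3, a mark of active promoters, and 3 per group for NCOR and PPARα. The column headers of these H3K27ac and H3K4me3 libraries call the livers fed, while those of the other libraries give no feeding state. The *Ncor* line has 3 per group for H3K27ac, GPS2 and PPARα, the *Smrt* line 3 for H3K27ac, and the *Pparα* line 3 for GPS2 and NCOR and 2 for PPARα. According to the methods, 2 to 4 immunoprecipitations were pooled per ChIP-seq library. No label ties a library to 1 animal, so p-values measure the spread between these libraries.

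The RNA-seq libraries hold 13.19 M to 20.09 M counted reads and the 64 ChIP-seq libraries 7.9 M to 46.11 M tags (mapped reads). *Gps2* itself had 265, 266, 287 and 237 reads in WT livers against 170, 194, 148 and 157 in LKO livers, and the targeted genes of the other lines were not analysed here. Y-linked genes were read in all 8 RNA-seq libraries. In the H3K27ac libraries of the *Ncor* line, 5 peaks on the Y chromosome summed to 306 to 371 tags per 10000000, while 2 peaks at *Xist* and *Tsix* summed to 4.55 to 8.54. In all 6 libraries of the *Smrt* line the Y peaks had 0 tags and the *Xist* and *Tsix* peaks 266 to 297, although the methods describe all mice as male. The 3 PPARα libraries of *Gps2* WT livers differed from each other by no more than sampling noise (chi-square per degree of freedom 1.06, against 1.29 to 12.6 in the other groups) and were counted as 1 sample.

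In mm9, the genes lie in the order *Cyp2b10* (chr7:26682639-26711643), *Cyp2b13* (chr7:26846514-26881215), *Cyp2b9* (chr7:26958430-26995680), *Cyp2a4* (chr7:27092209-27100107), *Cyp2a5* (chr7:27620324-27628567), *Cyp2a22* (chr7:27716650-27724405, the only one on the minus strand) and *Cyp2a12* (chr7:27814109-27821826). Of all 50-base words in their exons, 45.0% (*Cyp2a5*), 61.4% (*Cyp2a4*), 70.3% (*Cyp2a12*), 70.7% (*Cyp2b13*), 76.4% (*Cyp2a22*), 87.1% (*Cyp2b9*) and 92.0% (*Cyp2b10*) occur once in the mm9 genome. *Cyp2a4* and *Cyp2a5* share 466 such words, *Cyp2b9* and *Cyp2b13* share 182, and *Cyp2b10* and *Cyp2b13* share 92. Reads from shared words cannot be assigned to 1 copy, so the split of reads within these pairs is uncertain. Words repeated outside the pairs also exist, so the sum of a pair can be touched as well. *Cyp2b10* has the largest share of words found once.

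Several regulatory regions of these genes are near-identical too, and the GPS2 peaks printed here are those on which the results turn. Each is 137 bases of mm9, named by its distance from the annotated start of its gene, with bases that differ between the 2 copies of a pair in capitals. The first pair lies in intergenic sequence downstream of *Cyp2a4* and *Cyp2a5* and differs at 3 of 131 aligned bases (97.7% identity).
Cyp2a4 at +43228 bp, chr7:27135371-27135507, plus strand: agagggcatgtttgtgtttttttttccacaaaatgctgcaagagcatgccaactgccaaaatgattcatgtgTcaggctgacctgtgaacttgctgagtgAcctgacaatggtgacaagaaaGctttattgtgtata
Cyp2a5 at +43452 bp, chr7:27663742-27663878, plus strand: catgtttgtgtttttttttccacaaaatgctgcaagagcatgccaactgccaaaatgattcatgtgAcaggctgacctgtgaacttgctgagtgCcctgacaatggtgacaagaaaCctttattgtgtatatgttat
Both copies hold the word AGTTCACAGGTCA on the minus strand, which differs at 1 base from AGGTCANAGGTCA, the direct repeat with a spacer of 1 base (DR1) that PPARα with RXR can bind. Of the 48910 GPS2 peaks of this length that could be read, 8.85% held a DR1 with at most 2 mismatches in its 12 fixed bases on either strand, and of the 32 GPS2 peaks of the 7 genes 2 did (6.25%). The next 2 pairs lie upstream of *Cyp2b13* and *Cyp2b9* and differ at 2 of 134 and at 4 of 130 aligned bases (98.5% and 96.9% identity).
Cyp2b13 at -6085 bp, chr7:26840361-26840497, plus strand: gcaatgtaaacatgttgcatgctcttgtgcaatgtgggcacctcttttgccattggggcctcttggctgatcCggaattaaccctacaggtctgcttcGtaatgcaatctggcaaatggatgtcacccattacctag
Cyp2b9 at -4086 bp, chr7:26954274-26954410, plus strand: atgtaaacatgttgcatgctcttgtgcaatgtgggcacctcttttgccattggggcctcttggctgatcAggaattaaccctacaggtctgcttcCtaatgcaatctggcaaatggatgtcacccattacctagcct
Cyp2b13 at -6445 bp, chr7:26840001-26840137, plus strand: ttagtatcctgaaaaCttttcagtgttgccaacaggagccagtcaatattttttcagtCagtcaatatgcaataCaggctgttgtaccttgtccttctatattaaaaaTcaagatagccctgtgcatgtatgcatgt
Cyp2b9 at -4456 bp, chr7:26953904-26954040, plus strand: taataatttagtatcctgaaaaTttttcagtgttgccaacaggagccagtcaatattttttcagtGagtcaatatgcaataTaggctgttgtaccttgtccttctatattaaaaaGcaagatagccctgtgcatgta
The promoter peaks of *Cyp2a12* and *Cyp2a22* differ at 6 of 117 aligned bases (94.9% identity).
Cyp2a12 at -139 bp, chr7:27813902-27814038, plus strand: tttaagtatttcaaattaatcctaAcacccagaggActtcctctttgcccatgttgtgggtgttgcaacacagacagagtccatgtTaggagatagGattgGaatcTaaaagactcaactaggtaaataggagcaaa
Cyp2a22 at -109 bp, chr7:27724446-27724582, minus strand: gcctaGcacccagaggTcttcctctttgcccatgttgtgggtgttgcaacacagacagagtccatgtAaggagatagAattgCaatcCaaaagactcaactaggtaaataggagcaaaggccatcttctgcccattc
The *Cyp2b10* peak is shown without a copy, and its capitals mark the closest match to a direct repeat with a spacer of 4 bases (DR4, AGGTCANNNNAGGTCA), the kind of element through which CAR acts on this gene.
Cyp2b10 at -2279 bp, chr7:26680330-26680466, plus strand: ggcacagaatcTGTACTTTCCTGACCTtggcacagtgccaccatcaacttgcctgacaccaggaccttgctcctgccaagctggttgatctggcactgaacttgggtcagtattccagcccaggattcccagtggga
Read on the minus strand this is AGGTCAGGAAAGTACA, with 2 mismatches in the 12 fixed bases. By the same criterion 4.08% of all GPS2 peaks held a DR4, and 2 of the 32 did (6.25%), the other at -23218 bp of *Cyp2a22*. A match describes letters and is not evidence of binding.

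The 250 bases before the starts of *Cyp2a4* and *Cyp2a5* (RefSeq, GRCm38.p6) are given because *Cyp2a4* differed far more than *Cyp2a5* between WT and LKO livers while their promoters differ at 4 of 249 aligned bases (98.4% identity), shown in capitals.
Cyp2a4 promoter, chr7:26306942-26307191, plus strand: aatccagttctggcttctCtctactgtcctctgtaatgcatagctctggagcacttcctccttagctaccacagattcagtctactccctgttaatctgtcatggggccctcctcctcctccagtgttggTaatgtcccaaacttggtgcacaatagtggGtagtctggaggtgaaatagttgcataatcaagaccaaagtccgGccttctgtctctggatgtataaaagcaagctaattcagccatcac
Cyp2a5 promoter, chr7:26835089-26835338, plus strand: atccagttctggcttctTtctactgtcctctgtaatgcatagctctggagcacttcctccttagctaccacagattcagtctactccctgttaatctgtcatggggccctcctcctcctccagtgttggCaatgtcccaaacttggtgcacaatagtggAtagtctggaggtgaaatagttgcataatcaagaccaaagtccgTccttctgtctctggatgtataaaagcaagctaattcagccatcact
The promoters of *Cyp2b9* and *Cyp2b13* were 99.2% identical over the same stretch, those of *Cyp2a12* and *Cyp2a22* 93.6%, and those of *Cyp2b9* and *Cyp2b10* 73.3%. Entries for all 7 promoters were found.

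The first question was how much RNA of each gene the livers held with and without GPS2. The genes were selected on this contrast, so the values are a description with no test, and library-size normalized read counts are given for each library. *Cyp2a4* had 38.1, 41.2, 45.8 and 82.2 in WT livers against 20300, 16300, 19520 and 19400 without GPS2, a log2 fold change of 8.51 (SE 0.17). *Cyp2b9* had 0.98, 1.87, 1.83 and 3.01 in WT livers against 883, 1009, 766 and 821. These are the 2 genes that went from near absence in WT to high levels, and for *Cyp2b9* the 8 WT reads against 3429 LKO reads give a ratio of 407 (95% counting interval 206 to 944). *Cyp2b13*, its closest copy, had 0 reads in all 4 WT libraries and 4, 8, 3 and 1 in LKO libraries, at least 5.07-fold higher than the floor of 3 reads over the group. *Cyp2b10* had 3, 4, 3 and 1 reads in WT livers against 7, 11, 8 and 7, a ratio of 2.85 (1.4 to 6.25). Both genes remained at a few reads per library and did not pass the filter on low counts, so only 5 of the 7 entered the fit.

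Among the *Cyp2a* genes, *Cyp2a22* had 14.7, 12.2, 8.25 and 11.0 normalized counts in WT livers against 69.4, 80.1, 63.4 and 64.8, a log2 fold change of 2.59 (SE 0.19). *Cyp2a5* differed less, with 5525, 5380, 5596 and 5532 against 9857, 8235, 9491 and 9675 (log2 0.76, SE 0.063). *Cyp2a12* differed least, with 7683, 7565, 7418 and 7503 against 10420, 9003, 9021 and 10060 (log2 0.35, SE 0.060). The WT and LKO libraries did not overlap for any of the 7 genes, and the share of all genes without overlap was not counted. All 5 genes that passed the filter were called higher in LKO livers (edgeR, adjusted p below 0.05). Over all 12220 genes tested, 23.4% were called higher. Nothing is read from either count of the 7 genes, because the contrast chose them. Per kilobase of exon, WT levels ran from *Cyp2a12* (4533 ± 66.9 normalized counts per kb, SD, n = 4) and *Cyp2a5* (3212 ± 53.2) down to *Cyp2a4* (30.2 ± 12.0) and *Cyp2a22* (5.18 ± 1.19), with *Cyp2b10* and *Cyp2b9* at 1.39 ± 0.61 and 1.02 ± 0.44. Only the last 2 of these neighbours overlapped between libraries. In LKO livers *Cyp2a4* stood first at 11010 ± 1028 per kb, above *Cyp2a12* (5784 ± 434) and *Cyp2a5* (5431 ± 429), whose libraries overlap, and *Cyp2b9* reached 463 ± 55.7.

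**Figure D1:**
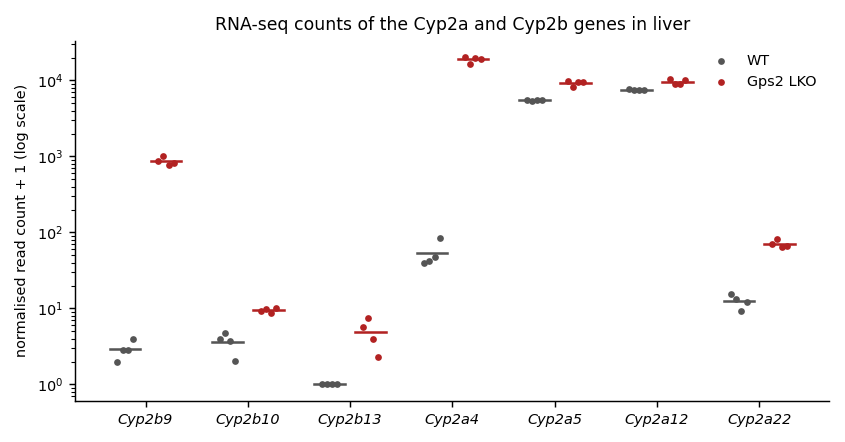
Normalized RNA-seq read counts plus 1 (log scale) of the 7 genes in 4 WT (grey) and 4 *Gps2* LKO (red) livers, with 1 point per library and a line at the group mean. *Cyp2a4* and *Cyp2b9* rise from 51.8 and 1.92 on average to 18880 and 870, and *Cyp2a5* and *Cyp2a12* average 5508 and 7542 in WT.

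Because *Cyp2a4* and *Cyp2a5* share exon words, their split was followed as a share of their summed reads. *Cyp2a4* took 0.685, 0.759, 0.812 and 1.46% of the pair in WT livers and 67.3, 66.4, 67.3 and 66.7% in LKO livers, so the 4 LKO libraries lay within 1 percentage point of each other, far above WT. Summed before the fit, the pair rose by a log2 fold change of 2.34 (SE 0.068), *Cyp2a12* with *Cyp2a22* by 0.36 (SE 0.060) and the 3 *Cyp2b* genes by 7.56 (SE 0.16). *Cyp2a22* remained under 1% of the reads of its pair in every library, with 0.111 to 0.19% in WT and 0.64 to 0.882% in LKO livers.

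Genes with related roles were described by lists written with earlier results of these data known, so the counts are descriptions beside the 2856 higher and 2621 lower calls among all genes tested (median log2 fold change 0.03). Of 9 regulators and partners of CYP2 enzymes, 3 were higher and 3 lower in LKO livers (median -0.17), from *Por* (0.58), the electron donor, to *Hnf4a* (-0.41), a hepatocyte transcription factor. *Nr1i3*, which encodes CAR, had 1729 ± 50.5 normalized counts in WT and 2392 ± 206 in LKO livers (log2 0.47, SE 0.068). Of 13 tested targets of CAR and its relative PXR, 7 were higher and 1 was lower (median 0.35), with *Gadd45b* (1.38) and the carboxylesterase gene *Ces2a* (-0.89) at the ends. The genes known for sex-biased expression moved in opposite directions. All 10 female-biased genes that passed the filter, of 16 listed, were higher (median 3.01), from *Fmo2*, a flavin monooxygenase (0.66), to *Hao2*, a hydroxyacid oxidase (6.60). Among them is *Cyp4a14* (4.85), which the study names as a PPARα target that is higher in *Gps2* LKO livers. Of 10 male-biased genes 9 were lower (median -1.11), led by *Elovl3*, a fatty acid elongase (-2.68), while *Mup20* did not pass the test (0.05, SE 0.090). In the growth hormone axis 2 of 9 genes were higher and 4 lower (median -0.10), from *Socs2*, a feedback inhibitor of the pathway (1.19), to *Bcl6*, a repressor that opposes STAT5 (-1.85). Of 6 tested neighbours in the cluster, 2 were higher (median 0.40), with *Cyp2g1* at 1.30 and *Rab4b* at -0.18.

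Over the 8 libraries, the non-member genes whose log2 counts followed *Cyp2b9* most closely among 8540 genes with a mean of at least 100 normalized counts were *Emp2*, *Abcd2* and *Cyp4a14* (Pearson's r of 0.9997, 0.9996 and 0.9986). For *Cyp2a4* they were *Emp2*, *Cyp4a14* and *Alas1* (0.9987, 0.9981 and 0.998), and for *Cyp2a5* they were *Alb*, *Inmt* and *Tff3* (0.9984, 0.998 and 0.9977). With 2 groups of libraries, such values describe the step between WT and LKO and little else. *Alas1*, the first enzyme of heme synthesis, had 14740 normalized counts on average in WT and 24390 in LKO livers. Markers of other liver cells moved in the same comparison. All 5 macrophage markers were higher (summed level 1892 to 1968 in WT and 2569 to 2916 in LKO livers), as were 4 of 4 stellate cell markers (948 to 1021 and 1576 to 1978), 2 of 4 endothelial markers, 2 of 4 cholangiocyte markers and the 1 tested lymphocyte marker. Of the hepatocyte markers 2 of 5 were higher and 1 was lower, of the pericentral ones 4 of 8 higher and 2 lower, and of the periportal ones 3 of 6 higher and 1 lower, and the defining hepatocyte marker *Alb* was read in every library. The part of these markers in the values of the 7 genes was not tested, and in bulk liver fewer cells of a type and less RNA per cell cannot be told apart.

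GPS2 binding itself was measured once in WT and once in LKO livers, as tags per 10000000. The ChIP-seq comparisons of the *Gps2* line share the contrast that chose the genes, so their counts are descriptions. All 32 GPS2 peaks of the 7 genes were at least 2-fold lower in the LKO library, as were 99.7% of all GPS2 peaks, which is the check of the knockout. Their sum was 551 tags per 10000000 (854 tags) in WT and 9.47 (14 tags) in LKO livers, a ratio of 0.0172 (0.00935 to 0.029, counting error only), and 21 of the 32 had 0 LKO tags. Every gene had at least 2 peaks. The strongest lay in an intron of *Cyp2b13* at +21266 bp, with 50.3 and 0 tags. Next came the promoter peak of *Cyp2a22* shown above (31.0 and 0) and the *Cyp2b13* peak at -6445 bp (30.3 and 0). *Cyp2a4* was bound most at +43228 bp (16.8 and 0) and *Cyp2a5* at its copy at +43452 bp (21.3 and 0), and neither gene had a GPS2 peak at its start. The *Cyp2b10* peaks at -4270 bp and -2279 bp had 24.5 and 16.1 tags in WT and 0.676 each in LKO livers. GPS2 in WT was thus present near genes with little RNA (*Cyp2b13*, *Cyp2a22*) and near genes that were highly expressed (*Cyp2a12*, *Cyp2a5*).

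Pol II, the enzyme that transcribes these genes, was also measured with 1 library per group. Of 15 peaks, 4 were at least 2-fold higher in the LKO library, against 7.72% of all Pol II peaks, and they belong to *Cyp2a4* and *Cyp2b9*. A further 2 were at least 2-fold lower, against 5.94% of all Pol II peaks, both intergenic and weak (*Cyp2a12* at +18412 bp with 8.58 and 1.68 tags, *Cyp2a5* at -6015 bp with 11.2 and 5.04). The *Cyp2a4* start peak had 12.0 tags in WT (95% Poisson interval 6.57 to 20.2) and 174 in LKO livers (151 to 199), a 14.5-fold difference, and the peak at its end (+8691 bp) had 5.15 and 66.4. *Cyp2b9* had 0 and 8.41 in its first kilobases (+1084 bp), at least 3.27-fold higher, and 4.29 and 16.8 far upstream (-52717 bp). The start peaks of *Cyp2a5* and *Cyp2a12* had 128 and 127 tags in WT and 136 and 110 in LKO livers, within their intervals. *Cyp2b10* (7.72 and 10.1) and *Cyp2a22* (10.3 and 10.1) had little Pol II in either library, and *Cyp2b13* had no peak. Of the 50-base words in the *Cyp2a4* start peak 84.1% occur once in the genome. Tags were not split by uniqueness, so the part of shared tags in the difference from *Cyp2a5* was not tested.

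H3K27ac was measured in 2 WT and 2 LKO livers of the *Gps2* line. Summed over its peaks, *Cyp2a4* had 8.39 and 8.85 tags per 10000000 in WT and 39.9 and 60.5 in LKO livers. *Cyp2b9* had 21.2 and 19.1 against 58.3 and 67.9, and *Cyp2b10* had 54.4 and 60.3 against 147 and 174. The LKO to WT ratio of *Cyp2b10* was thus close to that of *Cyp2b9*, although *Cyp2b10* RNA had only 7 to 11 reads in each LKO library. *Cyp2b13* (17.6 and 17.7 against 32.4 and 36.7), *Cyp2a22* (184 and 193 against 293 and 318) and *Cyp2a5* (150 and 202 against 281 and 329) differed by less than 2-fold, and *Cyp2a12* (669 and 677 against 784 and 783) least. Of 23 member peaks tested, 11 in 6 genes were called higher by edgeR, against 1.21% of all peaks called higher (median log2 fold change 0.95 over the member peaks and 0.06 over all). Results of this contrast were known when the genes were chosen, so nothing is read from the count. The count was 3 with TMM scaling, 0 without WT library 1 or WT library 2, and 17 without LKO library 1. Single peaks with large values were those of *Cyp2b10* at -3448 bp (29.2 and 29.6 against 88.8 and 89.3) and -8817 bp (19.2 and 26.9 against 51.5 and 69.3). The *Cyp2b9* peak at -53144 bp, where Pol II was also higher, had 3.2 and 2.72 against 21.4 and 17.0.

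H3K4me3 was dominated by *Cyp2a12*, whose peak at +1635 bp had 302 and 295 tags in WT and 392 and 354 in LKO livers, and by *Cyp2a5* at +4616 bp (28.5 and 45.0 against 41.6 and 46.3). Of the 3 member peaks that entered the fit, 0 were called by edgeR, by DESeq2 or with TMM scaling, against 0.798% of all peaks called higher. Summed over its 3 peaks, *Cyp2b9* had 6.53 and 5.21 tags in WT and 15.8 and 13.3 in LKO livers, and the groups did not overlap. *Cyp2a4* carried little of the mark, with 2.38 and 0 against 2.1 and 7.98 tags at +1547 bp, and the groups overlapped.

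PPARα binding, which the study examined for its link to GPS2, was measured in 3 libraries per group, of which the WT ones count as 1 sample, so the WT group has no spread of its own and the fit assumes that of the LKO libraries. Of all WT tags 19.2 to 21.9% and of all LKO tags 28.9 to 32.1% fell in peaks, and the median log2 fold change of all peaks was 0.62 with scaling to total tags and 0.02 with TMM scaling. With that limit, 36 of 80 member peaks were called higher in LKO livers, against 21.5% of all peaks, and the member median was 1.00. Nothing is read from this count either, because the contrast chose the genes. With TMM scaling 5 were called and with DESeq2 0, so the count depends on the scaling, and without LKO library 3 it was 23. Summed over peaks, *Cyp2a4* had 153, 161 and 147 tags in WT and 407, 421 and 287 in LKO livers, close to *Cyp2b10* (127, 188 and 167 against 460, 341 and 352). The *Cyp2a4* peak at -3441 bp had 32.9, 24.7 and 21.4 tags in WT and 116, 100 and 77.4 in LKO livers, and its exon peak at +1788 bp had 1.27, 1.9 and 2.25 against 24.1, 26.5 and 17.6. The matching upstream peak of *Cyp2a5* at -3455 bp had 10.1, 3.8 and 9.02 against 24.1, 17.1 and 14.1. The paired downstream peaks were alike in both genes, with 62.0, 84.5 and 77.8 against 134, 128 and 97.3 at +43169 bp of *Cyp2a4* and 78.5, 77.9 and 78.9 against 126, 115 and 98.5 at +43387 bp of *Cyp2a5*. At the start of *Cyp2b9* (-154 bp) the WT libraries had 0 tags and the LKO libraries 12.6, 1.89 and 3.52, at least 4.76-fold higher. At -4295 bp of *Cyp2b10*, its strongest PPARα peak, values were 55.7, 78.8 and 86.8 against 198, 123 and 123.

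NCOR binding in the same line gave 1 called peak among 65, in an intron of *Cyp2a4* at +6791 bp, with 2.71, 1.64 and 0.58 tags in WT and 7.51, 28.8 and 8.68 in LKO livers. Over all peaks 0.0124% were called higher, and again the member count is a description, because the contrast chose the genes. The member count was 0 without WT library 1, 2 or 3 or LKO library 2, 2 without LKO library 3, and 4 with TMM scaling. Member peaks had a median log2 fold change of 0.44 (all peaks -0.03). The share of tags in peaks was 8.26 to 13.1% in WT and 7.33 to 14.7% in LKO libraries, with the third library of each group lowest. At the strongest NCOR peak, -6269 bp of *Cyp2b13*, the libraries had 101, 105 and 70.7 tags in WT and 74.6, 121 and 66.7 in LKO livers, and the groups overlapped.

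**Figure D2:**
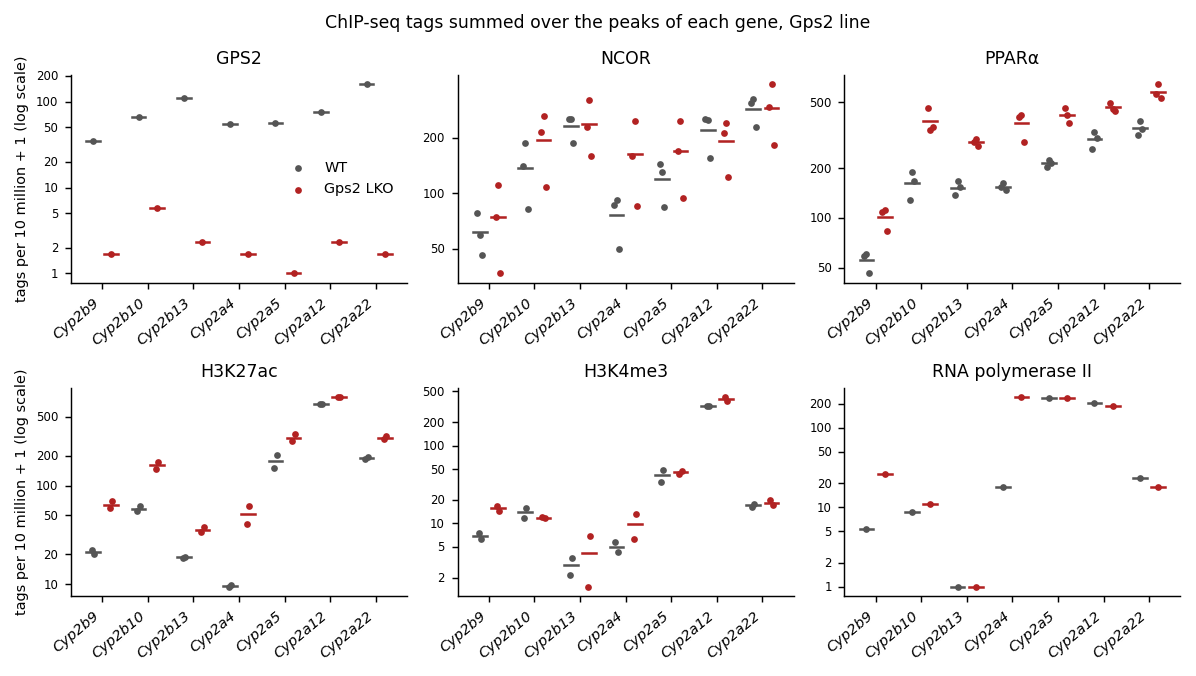
ChIP-seq tags per 10000000 plus 1 (log scale), summed over all peaks of each gene, in WT (grey) and *Gps2* LKO (red) livers for GPS2, NCOR, PPARα, H3K27ac, H3K4me3 and Pol II, with 1 point per library and a line at the group mean. GPS2 falls to under 5 tags at every gene, while Pol II rises from 17.2 to 240 at *Cyp2a4* and stays at 233 and 235 at *Cyp2a5*, and *Cyp2b13*, which has no Pol II peak, is drawn at 0 tags.

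The *Pparα* line played no part in the choice of the genes, so its comparisons were tested. PPARα tags near the 7 genes were low in WT, where 2.14 and 2.44% of all tags fell in peaks, and lower in KO livers (0.652 and 0.581%), and the median log2 fold change of all peaks was -1.68 with total tags and -0.23 with TMM scaling. Of 33 member peaks 11 in 6 genes fell (edgeR, adjusted p below 0.05), against 27.6% of all peaks that fell, with a member median of -2.08. Loss of PPARα tags is the check of this knockout, so nothing particular to these genes is read from the count. The *Cyp2a4* peak at +43131 bp had 20.5 and 21.4 tags in WT and 0 in both KO livers, at least 19.7-fold lower (adjusted p = 2.22e-05). The *Cyp2a5* copy at +43360 bp had 21.2 and 24.5 against 2.06 and 0.733 (log2 -3.93, SE 0.50, adjusted p = 4.52e-05). Both overlap the GPS2 peaks printed above. Of their 50-base words 42.3% and 44.2% are unique, so tags may pass between the copies. The strongest *Cyp2b10* peak (-4285 bp) did not pass, with 10.6 and 3.06 against 3.43 and 1.47 (adjusted p = 0.177).

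The other PPARα peaks that fell were those of *Cyp2b13* at -6468 bp (14.2 and 15.3 against 1.37 and 0, ratio 0.0482, 0.00565 to 0.186), -6086 bp (7.08 and 7.65 against 1.37 and 0) and +21266 bp (13.4 and 13.0 against 0.687 and 2.93, log2 -2.84, SE 0.60). The *Cyp2b9* copy at -4087 bp had 5.66 and 13.0 against 0.687 and 0 (ratio 0.0386, 0.00094 to 0.236). In the *Cyp2a12* and *Cyp2a22* region, 5 peaks fell, among them the *Cyp2a12* peak at +19996 bp (15.6 and 10.7 against 0.687 and 0, ratio 0.0268, 0.00066 to 0.159) and the *Cyp2a22* promoter peak (12.7 and 22.9 against 4.81 and 3.66, log2 -2.03, SE 0.45). The *Cyp2a12* promoter peak, by contrast, had 6.37 and 8.41 against 4.81 and 2.93 and did not pass (adjusted p = 0.266). With TMM scaling 4 of the 11 passed, those at +43131 bp of *Cyp2a4*, +43360 bp of *Cyp2a5*, -6468 bp of *Cyp2b13* and +19996 bp of *Cyp2a12*. Leaving out WT library 1 or WT library 2 leaves 1 WT library, so such fits cannot judge single peaks. The median log2 fold change of all peaks was then -1.76 and -1.47.

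NCOR fell at some of the same genes when PPARα was absent. Of 79 member peaks, 10 in *Cyp2a4*, *Cyp2a5*, *Cyp2b9*, *Cyp2b10* and *Cyp2b13* fell, against 2.51% of all peaks that fell, and the medians were -0.60 for the member peaks and -0.32 for all peaks (-0.02 for all with TMM scaling). At +43217 bp of *Cyp2a4*, NCOR had 39.0, 27.5 and 32.9 tags in WT and 3.27, 2.69 and 7.12 in KO livers (log2 -2.90, SE 0.41, adjusted p = 1.98e-09). At +41500 bp of *Cyp2a5* it had 18.7, 17.2 and 37.1 against 4.09, 3.37 and 2.85 (log2 -2.80, SE 0.44, adjusted p = 1.07e-07). Of the 50-base words of the second peak 25.4% are unique, so its tags may come from copies. Both peaks passed in every alternative fit, with TMM scaling, with DESeq2 and with each library left out. The copy of the first at +43419 bp of *Cyp2a5* overlapped between groups (46.3, 28.4 and 48.0 against 23.7, 31.6 and 17.1, log2 -0.76, SE 0.30, adjusted p = 0.177). The difference between the copies was not tested, and 58.1% and 57.7% of their words are unique.

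**Figure D3:**
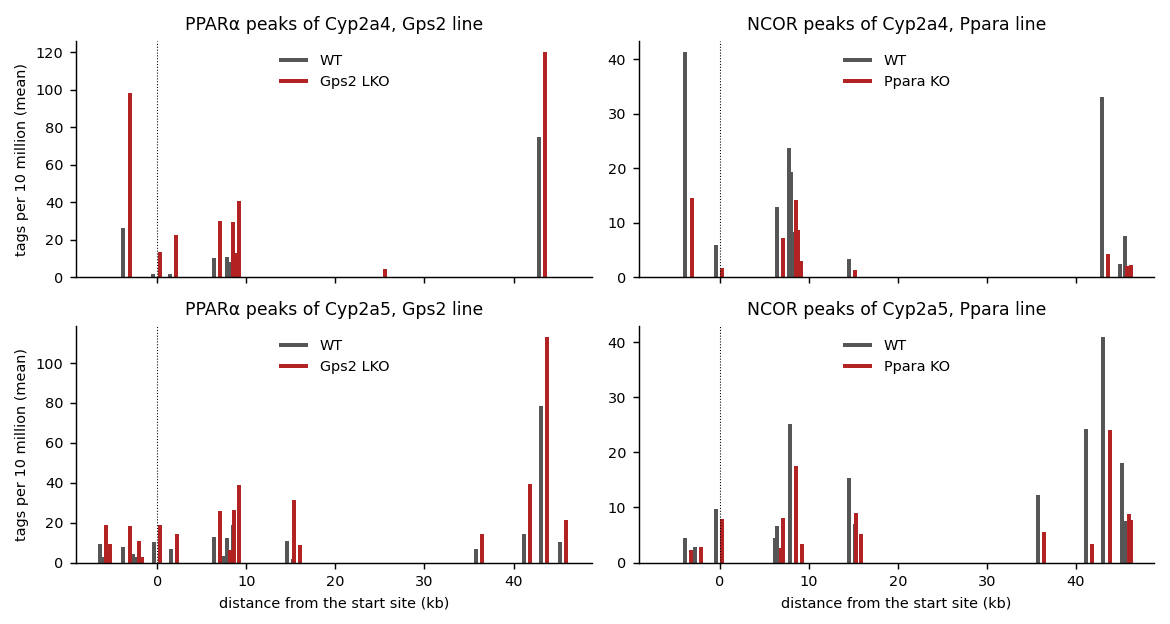
Mean tags per 10000000 at PPARα peaks in the *Gps2* line (left) and at NCOR peaks in the *Pparα* line (right) by distance in kb from the starts of *Cyp2a4* (top) and *Cyp2a5* (bottom), with WT in grey and the knockout in red and the bars of a peak drawn side by side. PPARα upstream of *Cyp2a4* (-3441 bp) goes from 26.3 to 98.0, and NCOR at +43217 bp of *Cyp2a4* goes from 33.1 to 4.36 and at +43419 bp of *Cyp2a5* from 40.9 to 24.1.

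The *Cyp2a4* peak at -3509 bp also lost NCOR, with 20.3, 40.4 and 63.2 against 11.4, 19.5 and 12.8 (log2 -1.48, SE 0.33, adjusted p = 9.74e-04). At *Cyp2b10*, the peak at -4278 bp had 77.2, 46.4 and 125 against 43.3, 49.1 and 32.0 (log2 -0.995, SE 0.23, adjusted p = 0.00217), and that at +18639 bp had 23.6, 22.4 and 65.7 against 15.5, 16.2 and 15.7 (adjusted p = 0.0142). *Cyp2b13* lost NCOR at -6457 bp (76.4, 61.1 and 79.2 against 45.0, 33.7 and 34.9, log2 -0.94, SE 0.24) and at 2 peaks about 74 kb upstream, and *Cyp2b9* at -4457 bp (22.8, 26.7 and 46.3 against 11.4, 15.5 and 9.25) and -770 bp (2.44, 3.44 and 20.2 against 0.817, 0 and 2.85). WT library 3 was highest at most of these peaks, and it also had the largest share of tags in peaks (27.5%, against 23.6 to 24.5% in WT libraries 1 and 2 and 17.2 to 23.5% in KO). Without it 2 peaks passed, without KO library 2 or KO library 3 there were 6, and with TMM scaling there were 4. Of all 115042 peaks, 1138, 2749, 1408 and 1206 fell in these fits. The highest NCOR signal of the cluster, in the intron of *Cyp2b13* at +21273 bp, was 157, 151 and 173 against 146, 142 and 112 and did not pass (adjusted p = 0.438), nor did the promoter peaks of *Cyp2a12* (122, 106 and 143 against 110, 111 and 107) and *Cyp2a22* (119, 113 and 139 against 110, 102 and 99.6).

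GPS2 in the *Pparα* line was below WT on average at all 22 member peaks, but 0 passed the adjustment with edgeR, DESeq2 or TMM scaling, against 0.273% of all peaks that fell. Of the 22, 11 had an unadjusted p below 0.05, as had 6410 of all 27842 peaks. The member median was -1.42 against -0.93 for all peaks (0.01 for all with TMM scaling). WT library 3 had 4.39% of its tags in peaks, against 2.42 and 2.55% in WT libraries 2 and 1 and 1.07 to 2.06% in KO. At +43233 bp of *Cyp2a4* the libraries had 7.63, 5.85 and 18.5 tags in WT and 2.18, 3.03 and 0.721 in KO livers (adjusted p = 0.0964), and at +43439 bp of *Cyp2a5* 9.71, 11.1 and 13.1 against 5.1, 3.78 and 3.61 (adjusted p = 0.182). The groups did not overlap at these peaks, which overlap the peaks where PPARα tags fell. At +21269 bp of *Cyp2b13* they overlapped (22.2, 18.9 and 46.9 against 23.3, 15.9 and 4.33).

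**Figure D4:**
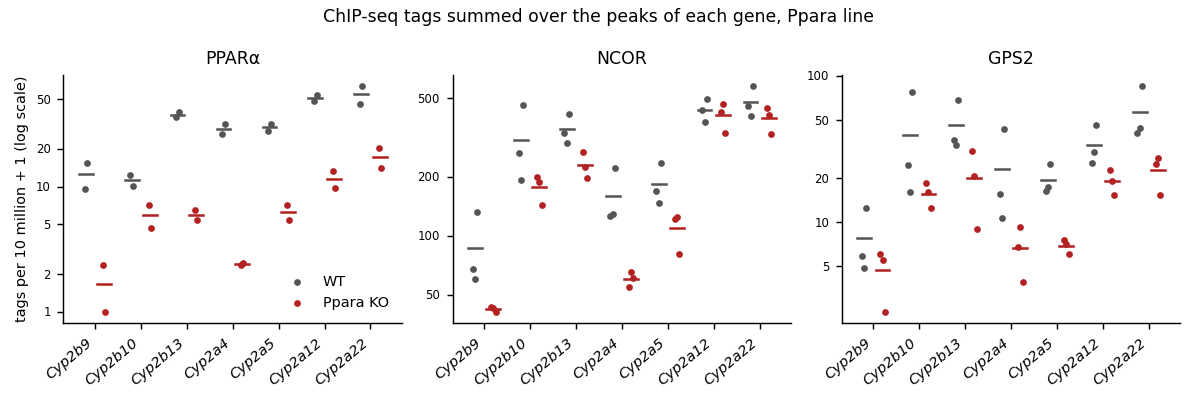
PPARα, NCOR and GPS2 tags per 10000000 plus 1 (log scale), summed over all peaks of each gene, in WT (grey) and *Pparα* KO (red) livers, with 1 point per library and a line at the group mean. NCOR at *Cyp2a4* goes from 125 to 221 in WT to 54.0 to 64.0 in KO livers, while at *Cyp2a12* the groups overlap.

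In the *Ncor* line, H3K27ac rose at *Cyp2b10*. Its peak from chr7:26676190-26684153 (-2506 bp), which contains the GPS2 peaks at -4270 bp and -2279 bp, had 145, 120 and 68.0 tags in WT and 314, 268 and 368 in LKO livers (log2 1.51, SE 0.24, adjusted p = 0.00996). This was the only peak of 59 member peaks that passed, against 2.32% of all peaks that rose. An unadjusted p below 0.05 was found for 13 of the 59 and for 10686 of all 68817 peaks. DESeq2 called 3 member peaks, beside 2486 higher and 925 lower of all 68817 peaks. Leaving out LKO library 2 gave 3, beside 1817 higher and 743 lower of all. Leaving out WT library 2 gave 0 (edgeR, adjusted p = 0.0531 for the *Cyp2b10* peak), beside 296 higher and 101 lower of all. Of the 50-base words of the *Cyp2b10* peak 97.4% are unique. *Cyp2a12* (474, 449 and 448 against 461, 370 and 466 at +1756 bp), *Cyp2a5* (285, 320 and 411 against 416, 321 and 448 at +2060 bp) and *Cyp2b9* (42.1, 32.4 and 64.9 against 73.0, 54.7 and 36.2 at +5079 bp) overlapped between groups. At *Cyp2a4* (+2375 bp), WT library 3 had 390 and LKO library 1 had 116 tags while the other 4 libraries had 27.1 to 35.1, so the group means of 151 and 59.5 rest on 1 library each (log2 -1.35, SE 0.88, adjusted p = 0.546).

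In the *Smrt* line, 0 of 59 member peaks and 0% of all 68800 peaks were called by edgeR, with 3 member peaks and 4079 of all peaks at an unadjusted p below 0.05, and DESeq2 called 0 member peaks and 68 of all (47 higher and 21 lower). The *Cyp2b10* peak at -2506 bp had 360, 427 and 298 tags in WT and 281, 381 and 397 in LKO livers (log2 -0.04, SE 0.16). The difference between the *Ncor* and the *Smrt* effect at this peak was 1.55 (SE 0.32), with an adjusted p of 0.0518 for the interaction of line and genotype. Over the interaction 0 of 59 member peaks passed with total tags or TMM scaling, against 0.426% of all peaks. An unadjusted p below 0.05 was found for 10 of the 59 and for 7693 of all 68818 peaks. The rise in 1 line and not in the other is therefore not shown to differ at the threshold of 0.05.

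The controls of these lines differed more than the knockouts did from their controls. This comparison was added after the sex-linked tags had been seen. In WT livers, 50 of the 59 member peaks, in all 7 genes, were higher in the *Smrt* line than in the *Ncor* line, against 13.1% of all peaks, and 1 was lower, against 9.53% of all peaks. The member median was 2.68 and that of all peaks 0.07. With TMM scaling 49 member peaks were higher and 1 lower, although the calls over all peaks turned from 9043 higher and 6558 lower to 6708 and 7642, and leaving out 1 library gave 42 to 50 calls.

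*Cyp2b13* differed most. Its peak over the start (+1380 bp) had 0.53 to 1.79 tags in WT of the *Ncor* line and 534 to 618 in WT of the *Smrt* line (log2 8.97, SE 0.21, adjusted p = 2.93e-07). *Cyp2b9* at +5079 bp had 32.4 to 64.9 against 1170 to 1240 (log2 4.70, SE 0.22, adjusted p = 5.12e-06), and *Cyp2b10* in its intron at +22011 bp 2.24 to 3.12 against 126 to 161 (log2 5.72, SE 0.19, adjusted p = 1.44e-06). The *Cyp2b13* and the *Cyp2b10* intron peak thus had almost no tags in the *Ncor* line, while the *Cyp2b10* peak at -2506 bp carried the mark in both (68.0 to 145 against 298 to 427). *Cyp2a4* at +2375 bp had 29.7, 33.3 and 390 against 1010 to 1210 (log2 2.87, SE 0.82, adjusted p = 0.0328), and at +15068 bp 0 to 2.01 against 16.4 to 28.6. *Cyp2a12* was nearly the same at its main peak, with 448 to 474 against 531 to 637 (log2 0.37, SE 0.086, adjusted p = 0.0147), and its peak at +44392 bp was the one that was lower (8.28 to 20.4 against 1.23 to 1.75). Summed over peaks, mean tags in WT of the *Ncor* and the *Smrt* line were 97.4 and 1700 for *Cyp2b9*, 69.0 and 2040 for *Cyp2b13*, 199 and 709 for *Cyp2b10*, 153 and 1150 for *Cyp2a4*, 413 and 961 for *Cyp2a5*, 328 and 885 for *Cyp2a22*, and 893 and 1070 for *Cyp2a12*. The line, the difference in Y and *Xist* tags described above and anything else that separates these libraries cannot be told apart.

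**Figure D5:**
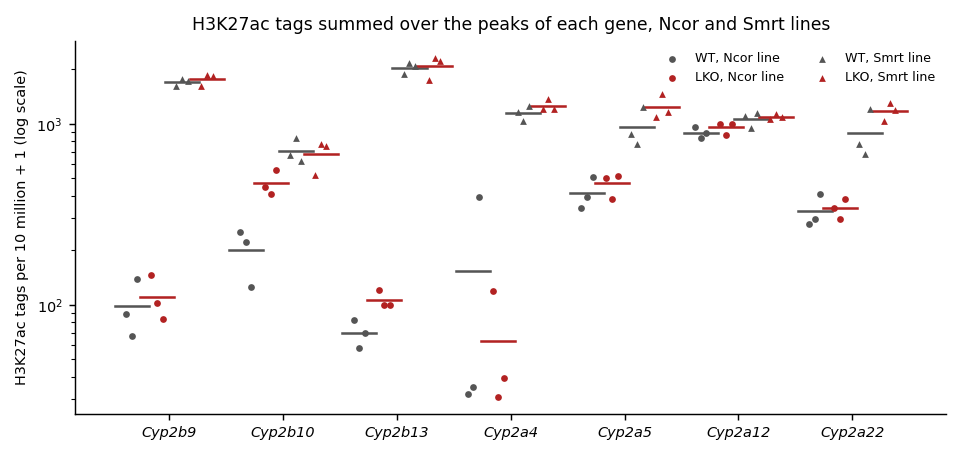
H3K27ac tags per 10000000 plus 1 (log scale), summed over all peaks of each gene, in WT (grey) and LKO (red) livers of the *Ncor* line (circles) and the *Smrt* line (triangles), with 1 point per library and a line at the group mean. *Cyp2b13* sits at 56.8 to 119 in the *Ncor* line and at 1750 to 2320 in the *Smrt* line in either genotype, and *Cyp2b10* of the *Ncor* line rises from 199 to 469 on average.

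GPS2 binding in the *Ncor* line was below WT on average at 34 of 35 member peaks. Summed over peaks, *Cyp2b13* had 113, 85.6 and 33.2 tags in WT and 25.6, 28.3 and 16.6 in LKO livers, and *Cyp2a22* had 154, 140 and 53.1 against 44.4, 46.7 and 32.7. Of the 35 peaks 0 were called with edgeR, DESeq2 or TMM scaling, against 0.0338% of all peaks that fell. An unadjusted p below 0.05 was found for 19 of the 35 and for 19323 of all 56278 peaks. The member median was -1.38 and that of all peaks -1.12 (-0.04 with TMM scaling). WT library 3 had 3.07% of its tags in peaks against 8.23 and 7.82% in WT libraries 1 and 2. Without it 27 of the 35 member peaks fell, as did 33248 of all 56277 peaks. With the replicate number as a block 13 member peaks were called, beside 46 higher and 10495 lower of all 56278 peaks. At +21259 bp of *Cyp2b13*, the strongest, values were 47.5, 32.4 and 13.4 against 9.36, 11.8 and 8.31 (log2 -1.66, SE 0.63, adjusted p = 0.0847).

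Of 74 PPARα peaks in the *Ncor* line 1 rose, against 0.151% of all peaks, at +25211 bp of *Cyp2a5* (1.85, 1.07 and 0.475 against 10.8, 5.87 and 9.12, log2 2.91, SE 0.71, adjusted p = 0.0343). The call was lost when any library but WT library 3 was left out, and 34.8% of the words of this peak are unique. The median of all peaks was 0.10 with total tags and -0.01 with TMM scaling. Other peaks named above for PPARα overlapped between groups. The peak at +43152 bp of *Cyp2a4* had 48.7, 45.9 and 30.0 tags in WT and 34.8, 43.7 and 50.5 in LKO livers, and that at -4292 bp of *Cyp2b10* had 42.6, 45.4 and 22.3 against 55.9, 32.0 and 71.1.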

How the data were processed

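Liver RNA-seq and ChIP-seq libraries were grouped from their labels. The authors deposited raw read counts per gene (RNA-seq) and raw tag counts per peak (ChIP-seq), and total tags per library stand in the file headers. Peak lists deposited per library carry a constant score of 1, and the authors' lists for H3K27ac and H3K4me3 in the *Gps2* line were used for positions only. The submitters' processing notes name Bowtie2, HOMER, HISAT2, SAMtools and featureCounts, with versions not given in the sources used here. ChIP-seq positions are mm9, and the exon positions of the RNA-seq table are GRCm38 although the methods name mm9. Columns with the authors' own fold changes and p-values in the RNA-seq table were not used, nor were the 2 input libraries.

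Counts were fitted with edgeR 4.0.16 in R 4.3.3 by the quasi-likelihood test with Benjamini-Hochberg adjustment over all features, RNA-seq with TMM scaling and the filter on low counts, and peaks with scaling to total tags and at least 1 tag. Peaks of the H3K4me3 and H3K27ac table entered where they overlapped a listed peak in at least 2 of 4 libraries. DESeq2 1.42.0, other scalings and filters, a replicate block, summed copies and leaving out each library were alternatives. Intervals (95%) and floors (3 counts) cover counting error only. Uniqueness was counted with 50-base words on mm9 and copies were aligned with biopython 1.88. The fits were tested on simulated data. Peaks were named where they were the nearest to a start within 1000 bp, had most tags of their gene in a table or passed the test, and other peaks named in the text were chosen after their values were seen. In each list the genes with the largest and the smallest fold change were named, and *Nr1i3*, *Alas1* and *Alb* in addition. The members and lists were chosen with earlier results of these data known.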

Additional observations from a re-analysis of the deposited data

How the results depend on the processing

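With near-identical copies summed, 3 of 3 summed RNA-seq units were called, beside 2855 higher and 2620 lower of all 12218 units tested. Nothing is read from this count, because the contrast chose the genes. With TMM scaling the member peaks called numbered 3 for H3K27ac and 4 for NCOR and 5 for PPARα in the *Gps2* line, 4 for NCOR and 4 for PPARα in the *Pparα* line, and 2 for PPARα in the *Ncor* line. DESeq2 called 3 H3K27ac peaks in the *Ncor* line, 5 H3K27ac and 0 PPARα peaks in the *Gps2* line, 2 NCOR peaks and 1 PPARα peak in the *Pparα* line, and 0 PPARα peaks in the *Ncor* line. Over all peaks DESeq2 called 2486 higher and 925 lower for H3K27ac in the *Ncor* line and 439 and 183 in the *Gps2* line. In the *Pparα* line it called 154 and 452 for NCOR and 114 and 455 for PPARα. With a mean of at least 10 tags the counts were 4 for GPS2 and 0 for PPARα in the *Ncor* line and 5 for PPARα in the *Pparα* line. Over all peaks that filter gave 2 higher and 4113 lower of 26122, 101 and 31 of 65596, and 6 and 4305 of 4459. With the 3 PPARα libraries of *Gps2* WT livers as separate samples the count was 57, beside 37518 higher and 308 lower of all 102519 peaks. Over all peaks, PPARα calls in the *Gps2* line turned from 22086 higher and 151 lower to 553 and 445 with TMM scaling, NCOR calls in the *Pparα* line from 157 and 2885 to 873 and 1206, PPARα calls there from 7 and 11112 to 181 and 1267, GPS2 calls in the *Ncor* line from 0 and 19 to 999 and 258 and in the *Pparα* line from 0 and 76 to 15 and 27. H3K27ac calls in the *Gps2* line turned from 568 and 100 to 285 and 97, and NCOR calls there from 10 and 4 to 231 and 128. PPARα calls in the *Ncor* line turned from 130 and 39 to 1096 and 400. The cause of these changes was not tested.

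Same-numbered libraries shared only a number: no comparison had a correlation above 0.1 in every pair of 3 or more (range -0.146 to 0.269), and no label ties the numbers. A replicate block gave 13 GPS2 calls and 0 PPARα calls in the *Ncor* line, 3 NCOR and 57 PPARα calls in the *Gps2* line, and 6 NCOR and 0 PPARα calls in the *Pparα* line, and moved no other count of member calls by over 1.5 times. Over all peaks the block gave 163 higher and 125 lower for NCOR and 36977 and 269 for PPARα in the *Gps2* line. For NCOR in the *Pparα* line it gave 105 and 1867, and for PPARα in the *Ncor* and *Pparα* lines 0 of all peaks.

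With each library left out, member calls ranged from 5 to 5 for RNA-seq, 0 to 17 for H3K27ac, 0 to 0 for H3K4me3, 0 to 2 for NCOR and 23 to 39 for PPARα in the *Gps2* line. They ranged from 0 to 3 for H3K27ac, 0 to 27 for GPS2 and 0 to 1 for PPARα in the *Ncor* line, 0 to 0 for H3K27ac in the *Smrt* line, 0 to 0 for GPS2, 2 to 12 for NCOR and 0 to 12 for PPARα in the *Pparα* line, and 42 to 50 between the WT livers of the *Smrt* and *Ncor* lines. Where 1 library remained in a group, it was assumed to vary like the other group. None of the named peaks or genes changed direction past the threshold. Named peaks of the *Gps2* line were compared by the shift in log2 fold change, whether called or not. In the other lines only called named peaks were followed, by their call. Of these values, 698 kept their call or shifted by less than 1 SE of the main fit. A further 98 were no longer called, and 100 in the *Gps2* line shifted by more.

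The number of libraries and the depth limit these results: GPS2 and Pol II have 1 library per group in the *Gps2* line, and many member peaks hold few tags.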

Other observations

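Other gene lists were compared between the WT livers of the *Smrt* and *Ncor* lines, and they differed in direction. Of 103 H3K27ac peaks of 16 female-biased liver genes outside the 7, 82 were higher in the *Smrt* line and 2 lower (median log2 difference 2.80), and of 76 peaks of 10 male-biased genes, 1 was higher and 61 were lower (median -1.94), beside 0.07 for all peaks. Of 69 peaks of CAR and PXR targets 14 were higher and 14 lower (median 0.17), of 104 peaks of the growth hormone axis 11 were higher and 5 lower (median 0.08), of 86 peaks of regulators and partners 13 were higher and 10 lower (median -0.01), and of 24 peaks of the flanking genes of the cluster 5 were higher and 1 lower (median 0.00445). These lists were written with earlier results of these data known, and the libraries are the same as those compared at the 7 genes. In the *Gps2* line, 6 of 33 H3K27ac peaks of the female-biased genes were higher in LKO livers (edgeR, median 0.87), and 1 of 48 peaks of the male-biased genes was lower (median -0.11), beside 568 higher and 100 lower of all 47108 peaks (median 0.06). Over all peaks, 0 were higher without WT library 1 (4774 at an unadjusted p below 0.05) and 1 without WT library 2.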
